A study of Mus musculus with 12 samples.

Results

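The 50 genes described here encode the machinery that copies chromosomal DNA, and they were chosen by name, as the entries of the deposited table with these gene symbols. Each symbol was found once, which gives 50 of the 17419 genes in the table. The table comes from NIH-3T3, a wild-type line of immortalised mouse fibroblasts. RNA was labelled in the cells with 4-thiouridine (4sU), a uridine analogue that cells build into new transcripts, at 800 µM for 15, 30, 60, 90 or 120 min, or was left unlabelled (no4sU). Iodoacetamide then made 4sU read as cytidine in sequencing, the SLAM-seq method, so that each of the 12 libraries, 2 for each of the 6 groups, gave a read count per gene, and each of the 10 labelled libraries also a new-to-total ratio (NTR), the estimated share of its transcripts that arose while 4sU was present. The labels give replicate letters A and B but do not say that they were separate cultures, so p-values measure the spread between these libraries, which may be technical.

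Replication starts when the origin recognition complex (Orc1 to Orc6) binds DNA and, with Cdc6 and Cdt1, loads the ring-shaped MCM helicase, a step that geminin (Gmnn) blocks by binding Cdt1. Cdc45, the GINS complex and Mcm10 then turn the loaded ring into an active helicase, primase and the DNA polymerases copy the strands, and the clamp PCNA, its loader and the single-strand binding protein RPA keep the fork running. Many of these genes are known targets of E2F transcription factors, which drive their expression as cycling cells approach S phase, and NIH-3T3 cultures in serum are cycling cells.

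E2F factors bind a short GC-rich word, which was searched in the promoters of the 50 genes. The words TTTCCCGC, TTTGGCGC, TTTCGCGC and TTTGCCGC were searched on both strands, where they may overlap, from 250 bases before to 50 bases after the annotated start in RefSeq promoters of build GRCm38.p6. Promoters were found for 42 of the 50 genes. At least 1 word stood in a promoter of 17 of these 42 genes (40.48%), against 704 of 27025 genes with a RefSeq promoter (2.60%) and 382 of the 7237 averaging 100 or more reads per library (5.28%). A match describes the letters in the window and no binding was measured here. The stretches of 200 bases before the start are shown for 4 genes that carry a word and differ in the results below, with the words in capitals: Orc1 and Cdc6, with a high NTR and a level that fell, Mcm5, with an NTR near the median of the 50, and Pola1, with one of the lowest, neither of which was called lower. They lie before the RefSeq start at chr4:108579254-108579453 (+ strand), chr11:98907951-98908150 (+), chr8:75109309-75109508 (+) and chrX:93632156-93632355 (-). In the GENCODE annotation, used below for gene positions, Orc1 and Cdc6 start earlier, at 108579423 and 98907801. The Cdc6 stretch thus lies inside the GENCODE gene, and so does the end of the Orc1 stretch with its word.
Orc1: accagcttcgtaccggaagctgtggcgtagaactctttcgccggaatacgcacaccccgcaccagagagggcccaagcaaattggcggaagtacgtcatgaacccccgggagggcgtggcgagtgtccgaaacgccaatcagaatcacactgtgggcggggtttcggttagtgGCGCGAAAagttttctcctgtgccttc
Cdc6: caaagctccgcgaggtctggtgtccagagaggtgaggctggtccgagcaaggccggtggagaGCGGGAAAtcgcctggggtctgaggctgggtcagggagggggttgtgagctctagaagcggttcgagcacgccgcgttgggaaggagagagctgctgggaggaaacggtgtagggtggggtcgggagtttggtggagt
Mcm5: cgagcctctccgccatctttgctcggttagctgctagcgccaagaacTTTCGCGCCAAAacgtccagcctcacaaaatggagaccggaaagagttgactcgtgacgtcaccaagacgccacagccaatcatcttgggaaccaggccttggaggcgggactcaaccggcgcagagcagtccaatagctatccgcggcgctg
Pola1: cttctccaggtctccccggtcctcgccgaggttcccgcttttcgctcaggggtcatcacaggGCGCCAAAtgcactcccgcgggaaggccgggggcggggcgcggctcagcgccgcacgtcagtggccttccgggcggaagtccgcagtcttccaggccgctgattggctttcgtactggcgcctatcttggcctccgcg
In Mcm5 a pair of words on opposite strands overlaps in a run of 12 bases that begins 153 bases before the start, and in Orc1 the word begins 27 bases before it. The word was found in 5 of 10 genes with an NTR above 0.5 at 120 min (Orc1, Cdc6, Cdt1, Gins3 and Pold3) and in 12 of 32 genes at or below it, so fast and slow genes both carried it.

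Sequencing depth was similar across libraries, with totals of 9917026 to 13739380 reads, and TMM scaling factors lay between 0.97 and 1.02. All 10 fibroblast markers listed passed the filter on low counts, with a median of 284 RPKM (library-scaled reads per kilobase of the deposited gene length). Col1a1, Vim and Fn1 were at 228 ± 16.7, 1444 ± 80.2 and 853 ± 85.8 RPKM (SD over 12 libraries), whereas the lowest of the list, Lum, was at 0.668. At 120 against 15 min 6 of the 10 were called higher and 0 lower in edgeR's test, where 19.3% of genes were called, and for the slope 8 and 0, where 37.8% were; their part in the results below was not tested. Markers of other cell types were low, with mean counts of 2.08 for the epithelial Cdh1, of 0.917 and 13.3 for the endothelial Pecam1 and Cdh5, and of 0.833 for the leukocyte marker Ptprc. Cd68, a macrophage marker, had a mean count of 62.6 (4.47 RPKM) and was called higher for the slope (0.25 log2 per hour, adjusted p = 0.0244) but not at 120 against 15 min. The no4sU pair stood apart in its replicate spread. Over the 50 genes, the log2 difference between replicates B and A had an SD of 0.150 without 4sU and of 0.0749 to 0.0996 in the labelled groups, and 12 genes differed by more than 0.2 in the no4sU pair against 1 to 4 in a labelled pair. This no4sU difference followed transcript length (Spearman rho 0.456 over the 50 genes and 0.576 over 9065 genes, as a description). Comparisons with no4sU are therefore given with and without each of its libraries, and the comparison of 120 with 15 min, which needs no no4sU library for its fold change, leads.

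The 50 genes were all well covered, with mean counts of 187 (Gins3) to 4504 (Rrm1), and all 50 passed the filter on low counts. Per length, the clamp Pcna was the most abundant at 233 ± 8.93 RPKM (SD over 12 libraries), followed by Rrm2, the regulatory subunit of ribonucleotide reductase, at 122 ± 7.97. The 6 MCM subunits, which form 1 ring together, lay within a narrow band from 64.4 ± 1.95 (Mcm6) to 95.2 ± 3.56 RPKM (Mcm7). Subunits of the origin recognition complex were less alike, from 5.99 ± 0.771 (Orc5) to 53.2 ± 5.04 RPKM (Orc6). The lowest level of the 50 was that of Pold3, an accessory subunit of polymerase delta, at 5.88 ± 0.522 RPKM. Levels below 12 RPKM were also found for Orc1, Orc3, Orc4, Cdc6, Gins2, Gins3 and Rfc2.

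By the NTR, the typical replication gene was replaced more slowly than the typical transcript of these cells. For labelling of 30, 60, 90 and 120 min, the median NTR of the 50 genes was 4.37% ± 0.601, 12.01% ± 0.0566, 19.4% ± 0.799 and 28.9% ± 0.127 (SD, n = 2). The corresponding medians of the 9065 genes that averaged 100 or more reads per library were 5.21% ± 0.120, 15.5% ± 0.410, 24.4% ± 1.40 and 35.4% ± 0.523. After 15 min the libraries gave 1.36% and 0.395% for the 50 genes, a spread as large as the value itself. The mean NTR at 120 min was above 0.5 in 10 of the 50 genes, against 33.5% of the 9065, above 0.7 in 4 against 18.5%, and below 0.2 in 11 against 24.0%. Fast genes were thus a smaller share of the 50 than of the larger set, and slow ones a similar share; neither difference was tested. Uridine content, which sets how many places 4sU can enter, was alike: U made up 19.1% to 30.6% of the transcripts of the 50 genes, with a median of 24.8%, against a median of 24.6% over 8957 genes.

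Written as a half-life under the assumptions of a constant RNA level and immediate labelling, the median of the 50 genes was 244 ± 1.13 min at 120 min, against 198 ± 5.44 min for the 9065 genes. The same formula gave 325 ± 1.84 min at 60 min and 289 ± 13.3 min at 90 min, and 247 ± 7.21 and 224 ± 14.8 min for the 9065 genes. The apparent half-life thus shortened with labelling time for the 50 genes and for the larger set, so a value below belongs to its time point and is no constant of the transcript.

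**Figure D1:**
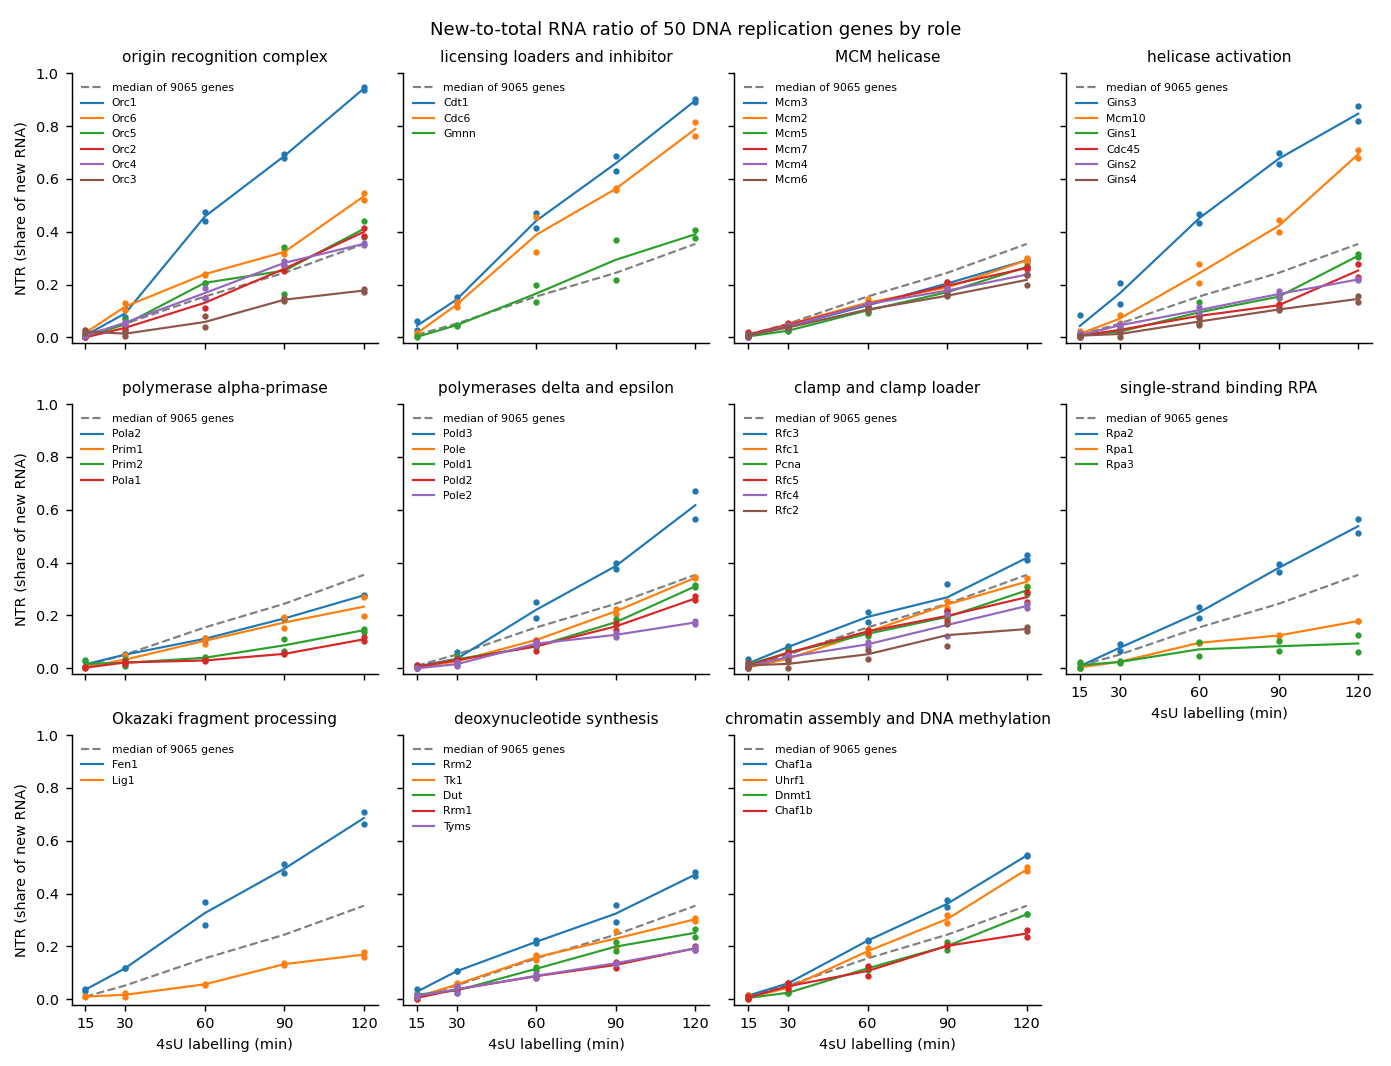
New-to-total ratio (NTR, vertical axis, share from 0 to 1) against 4sU labelling time (min) for the 50 genes in 11 panels by role. Points are single libraries, lines join the means of 2 libraries, and the dashed line is the median of 9065 genes; Orc1, Cdt1, Cdc6 and Gins3 run far above it, while the 6 MCM subunits stay below it at 120 min.

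By mean NTR at 120 min, Orc1, Cdt1, Gins3 and Cdc6 were the 4 highest of the 50, and 3 of them act in licensing, the loading of the MCM ring. Orc1 is an ATP-binding subunit of the origin recognition complex and is itself regulated through the cell cycle. It had an NTR of 0.441 and 0.474 after 60 min of labelling, of 0.679 and 0.695 after 90 min, and of 0.948 and 0.937 after 120 min. Its 90% intervals at 120 min, from the deposited quantiles, were 0.871 to 0.984 and 0.858 to 0.979. Nearly the whole Orc1 pool was therefore new after 120 min, with an apparent half-life of 29.1 ± 1.34 min (SD, n = 2). Cdt1, which brings the MCM ring to the origin, reached 0.893 and 0.902 at 120 min (half-life 36.6 ± 1.01 min). Cdc6, the ATPase that works beside it, reached 0.816 and 0.762 (53.6 ± 6.31 min). Geminin, the inhibitor of Cdt1, differed from its target and stood at 0.376 and 0.406, near the median of the 9065 genes. The NTR libraries of Orc1, Cdt1 and Cdc6 at 120 min did not overlap with those of Gmnn or of any MCM subunit. This is a description only, since the 3 genes are singled out here by these same values.

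Within the origin recognition complex the NTR at 120 min ran from 0.942 ± 0.00757 for Orc1 through 0.535 ± 0.0177 for Orc6, 0.411 ± 0.0415 for Orc5, 0.399 ± 0.0237 for Orc2 and 0.354 ± 0.00382 for Orc4 to 0.178 ± 0.0102 for Orc3. Orc5 and Orc2 differed by less than their spread. The MCM subunits, by contrast, kept together: their NTR lay between 0.218 ± 0.0256 (Mcm6) and 0.293 ± 0.00679 (Mcm3), and their apparent half-lives between 241 and 341 min. Among the factors that activate the helicase, the GINS subunits did not share a turnover: Gins3 was at 0.819 and 0.875, while Gins1, Gins2 and Gins4 were at 0.309 ± 0.00856, 0.219 ± 0.00297 and 0.146 ± 0.0176. Mcm10, which holds polymerase alpha at the helicase, was at 0.709 and 0.678. Cdc45 was at 0.253 ± 0.0350.

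Other complexes, and a pair of enzymes that act in the same step, held a similar mix of fast and slow partners. In the RPA trimer, Rpa2 had an NTR of 0.538 ± 0.0378 at 120 min, Rpa1 of 0.179 ± 0.00120 and Rpa3 of 0.0942 ± 0.0443. Rpa3 was the lowest of the 50, though its libraries gave 0.126 and 0.0628, so its place in the order is uncertain. Of the enzymes that finish Okazaki fragments, the flap nuclease Fen1 stood at 0.686 ± 0.0306 and the ligase Lig1 at 0.169 ± 0.0116. Pold3 was at 0.618 ± 0.0750, while the catalytic subunit Pold1 was at 0.311 ± 0.00643 and Pold2 at 0.265 ± 0.0110. Rrm2 was at 0.472 ± 0.0108 and its partner Rrm1, the large subunit of ribonucleotide reductase, at 0.193 ± 0.0102. The largest subunit of the chromatin assembly factor, Chaf1a, was at 0.544 ± 0.00156 against 0.249 ± 0.0205 for Chaf1b. In each of these complexes, and for Fen1 and Lig1, libraries of the fast member lay above those of the slow one. Fast and slow were named from these same values.

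The polymerase alpha-primase complex was slow as a whole, with an NTR of 0.110 ± 0.0102 for the catalytic subunit Pola1, 0.144 ± 0.00785 for the primase subunit Prim2, 0.234 ± 0.0497 for Prim1 and 0.276 ± 0.00297 for Pola2. Pola1 had 0.117 and 0.103 at 120 min and an apparent half-life of 718 ± 70.5 min. The clamp Pcna was at 0.283 and 0.307 (239 ± 16.1 min), close to the MCM subunits, and the clamp loader subunits ran from 0.149 ± 0.0117 (Rfc2) to 0.418 ± 0.0139 (Rfc3). Thymidylate synthase (Tyms), which makes the thymidine nucleotide, was at 0.192 ± 0.00665. Uhrf1, which guides the maintenance methyltransferase to new DNA, was at 0.491 ± 0.0107, and that enzyme, Dnmt1, at 0.322 ± 0.000849.

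Levels were then compared between labelling times, since 4sU was present for longer in some libraries than in others. At 120 against 15 min, 8 of the 50 genes fell and none rose (edgeR quasi-likelihood test, Benjamini-Hochberg adjusted p below 0.05): 4 of the 6 subunits of the origin recognition complex (Orc1, Orc2, Orc5 and Orc6), both MCM loaders (Cdc6 and Cdt1), Mcm10 and Rrm2. Of the 11564 genes tested, 19.3% were called in this comparison, 11.3% lower and 7.93% higher, so 8 of 50 is a share near the background. The median log2 change of the 50 genes was 0.01, and that of all tested genes was 0.01. None of the 6 MCM subunits, 4 polymerase alpha-primase subunits, 5 subunits of polymerases delta and epsilon, 6 clamp and clamp loader genes or 3 RPA subunits passed the threshold. The count rested on both libraries of each group: it was 2 without 15 min replicate A, 5 without 15 min replicate B, 5 without 120 min replicate A and 3 without 120 min replicate B, and Orc2 and Mcm10 were called in all 4 of these fits. The shares of all genes called in them were 5.62%, 8.86%, 8.70% and 6.03%. In bulk RNA, fewer cells with a transcript and less of it per cell cannot be told apart.

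Levels are given as CPM, reads scaled to library size with TMM factors, for libraries A and B in turn. Orc2 (ENSMUSG00000026037, GRCm38 chromosome 1, 58462771 to 58505109, - strand) had 110.4 and 111.4 CPM (15 min), 102.7 and 101.9 (30 min), 100.4 and 100.3 (60 min), 99.6 and 94.96 (90 min), then 83.3 and 81.1 (120 min). No 120 min library overlapped with a library of any shorter time or without 4sU, which gave 102.1 and 108.2. The log2 change from 15 to 120 min was -0.43 (SE 0.0603, edgeR adjusted p = 0.00014), the largest fall of the 50. Orc1 (ENSMUSG00000028587, chromosome 4, 108579423 to 108614833, + strand) went from 39.9 and 36.7 CPM at 15 min through 35.5 and 34.0 at 60 min to 31.3 and 28.1 at 120 min. Its change was -0.37 (SE 0.0868, adjusted p = 0.00578).

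Orc5 (ENSMUSG00000029012, chromosome 5, 22486485 to 22550429, - strand), a core subunit of the complex, was at 22.5 and 24.3 CPM at 15 min and at 17.7 and 18.5 at 120 min, a change of -0.37 (SE 0.115, adjusted p = 0.0286). Its replicates at 90 min, 18.9 and 22.7 CPM, spanned much of that difference. Orc6 (ENSMUSG00000031697, chromosome 8, 85299632 to 85308278, + strand), a loosely bound subunit, was at 78.2 and 81.9 CPM at 15 min and at 64.7 and 70.0 at 120 min, a change of -0.25 (SE 0.0725, adjusted p = 0.0221). Orc3 and Orc4, the other subunits, had values of 0.01 and 0.00, whose sign varied with the scaling and the libraries used, and did not pass the test.

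Cdc6 (ENSMUSG00000017499, chromosome 11, 98907801 to 98923940, + strand) had 53.8 and 49.0 CPM (15 min), 49.6 and 51.2 (60 min), 44.5 and 39.8 (90 min), then 41.7 and 39.0 (120 min), a change of -0.35 (SE 0.0844, adjusted p = 0.00684). Its 90 and 120 min libraries all lay below its earlier ones. Cdt1 (ENSMUSG00000006585, chromosome 8, 122568015 to 122573554, + strand) went from 106.8 and 110.5 CPM to 94.5 and 85.0, a change of -0.28 (SE 0.0720, adjusted p = 0.0108). Geminin, with 30.4 and 33.6 CPM at 15 min and 34.8 and 33.6 at 120 min, did not pass the test (0.09, SE 0.0855, adjusted p = 0.471).

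Mcm10 (ENSMUSG00000026669, chromosome 2, 4989714 to 5012791, - strand) held its level until 60 min and was lower later. It had 65.6 and 64.2 CPM (15 min), 62.2 and 66.5 (60 min), 59.97 and 60.3 (90 min), then 51.9 and 52.4 (120 min), a change of -0.32 (SE 0.0672, adjusted p = 0.00313). Rrm2 (ENSMUSG00000020649, chromosome 12, 24708241 to 24714146, + strand) went from 290.5 and 273.5 CPM at 15 min to 236.5 and 244.4 at 120 min, a change of -0.23 (SE 0.0566, adjusted p = 0.00817). Its partner Rrm1 had a change of 0.07 and did not pass the test.

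The abundant genes of the fork and the helicase showed little movement between 15 and 120 min. Mcm2 had 255.1 and 254.2 CPM at 15 min and 270.2 and 256.1 at 120 min (0.05, SE 0.0518, adjusted p = 0.559), and this direction turned with library size alone as the scaling (-0.01). Mcm5 had 254.2 and 255.1 against 271.1 and 258.2 (0.06, SE 0.0543, adjusted p = 0.505), and also turned with that scaling (-0.0022). Pcna had 352.3 and 342.1 against 373.5 and 380.5 (0.12, SE 0.0481, adjusted p = 0.0888). In each of the 3 genes the libraries at 120 min lay above those at 15 min, without passing the threshold. The largest positive values among the 50 were those of Rfc2, a clamp loader subunit (0.20, SE 0.0748, adjusted p = 0.0669), Gins4 (0.18, SE 0.0850, adjusted p = 0.142) and Tyms (0.18, SE 0.0648, adjusted p = 0.0623). Rfc2 had 53.6 and 51.5 CPM at 15 min and 60.98 and 59.9 at 120 min. Gins4 had 42.6 and 44.3 against 48.3 and 50.2, and Tyms 83.2 and 90.7 against 100.9 and 95.6 CPM. In all 3 genes the libraries of the groups did not overlap. The same held for 17 of the 50 genes in this direction and for 15 in the other, so it does not set them apart. The share over all genes was not counted. These p-values are also from edgeR's quasi-likelihood test.

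**Figure D2:**
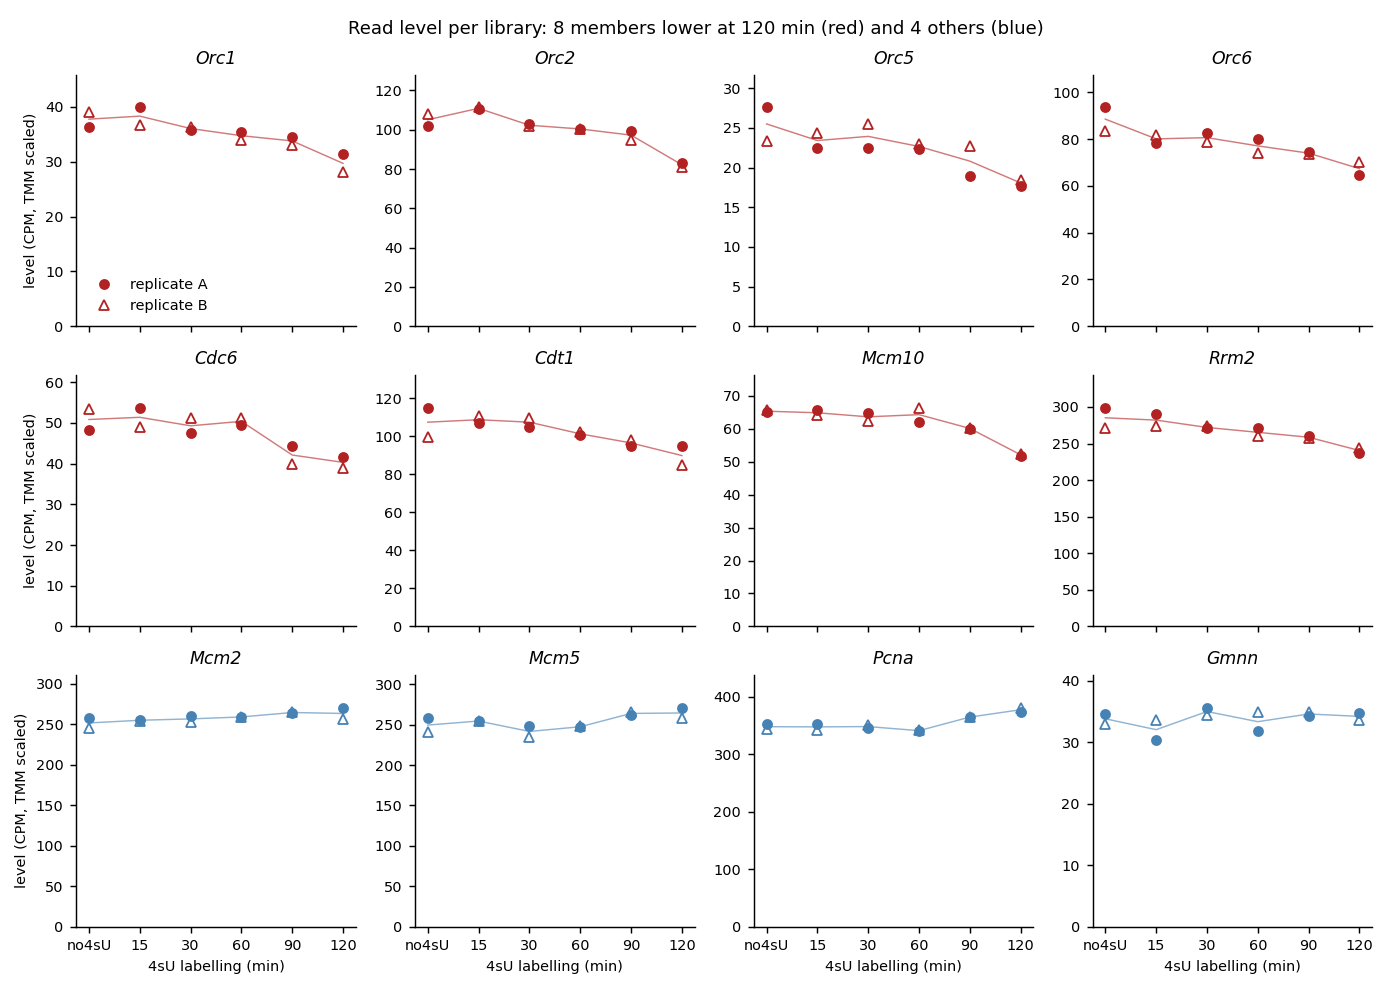
Read level (CPM with TMM scaling, vertical axis from 0) in each of the 12 libraries for 12 of the 50 genes, by labelling time (min) or no4sU. Filled circles are replicate A, open triangles replicate B and lines join the means. The 8 genes in red have their lowest mean at 120 min. Of the genes in blue, Mcm2 and Gmnn stay level within about their replicate spread, and Pcna sits highest at 120 min. Mcm5, also in blue, was called higher for the slope over the labelled libraries, though not in every fit that left out a library.

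Against cells without 4sU, the same 8 genes were lower at 120 min, and Mcm4 and Pola1 were higher. In this comparison 10 of the 50 genes were called, against a background of 14.2% of 11564 genes (8.78% lower and 5.43% higher). The log2 changes of the 8 genes were -0.49 (Orc5), -0.39 (Orc6), -0.36 (Orc1 and Orc2), -0.34 (Cdc6), -0.33 (Mcm10), -0.26 (Cdt1) and -0.24 (Rrm2), with adjusted p of 0.0008 to 0.0226 in edgeR's test. Pola1 was at 84.0 and 97.8 CPM without 4sU and at 110.8 and 105.9 at 120 min (0.25, SE 0.0702, adjusted p = 0.0241), and Mcm4 at 321.3 and 320.0 against 365.5 and 348.6 (0.15, SE 0.0497, adjusted p = 0.0426). At 120 against 15 min these changes were 0.11 for Pola1 and 0.06 for Mcm4 and were not called. The comparison shares its 120 min libraries with the one against 15 min. Without no4sU replicate A, 17 genes were called (8 higher and 9 lower), without no4sU replicate B 14 (4 higher and 10 lower), and without a 120 min library 5 (A left out) or 4 (B left out). The shares of all genes called in these 4 fits were 30.2%, 16.2%, 3.87% and 3.99%. Fitted on only the 2 groups compared, 0 of the 50 genes were called (9 at an unadjusted p below 0.05), and 1.5% of all genes were. Orc2, Orc6 and Mcm10 were called in all 4 fits that left out a library.

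No member was called at shorter times. Against no4sU, edgeR's test called 0 of the 50 genes at 15, 30, 60 and 90 min, with 0, 1, 3 and 11 at an unadjusted p below 0.05, and DESeq2 called 0 at each time, with 0, 1, 1 and 5 unadjusted. The background in edgeR's test was 0% at 15 and 30 min, 0.0173% at 60 min and 1.39% at 90 min, and for the unadjusted p 5.34%, 5.79%, 7.74% and 16.2%. Against 15 min, edgeR and DESeq2 called 0 at 30, 60 and 90 min, with 0, 2 and 5 unadjusted in edgeR and 0, 0 and 4 in DESeq2, against an edgeR background of 0%, 0.0346% and 1.06% (2.15%, 6.19% and 15.6% unadjusted). At 90 min the largest falls from 15 min were those of Cdc6 (-0.29) and Gins3 (-0.27), both with adjusted p above the threshold (0.106 and 0.282). When the no4sU libraries were left out of the fit, which was tried after seeing the data, 4 genes fell at 90 against 15 min (Orc2, Cdc6, Cdt1 and Rrm2) and 14 were called at 120 against 15 min, 9 of them lower (the 8 genes and Uhrf1) and 5 higher (Gins4, Pcna, Rfc2, Rpa1 and Tyms). In that fit 9.33% of all genes were called at 90 min and 32.1% at 120 min, so both counts are close to the background.

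The slope of level on labelling time over the 10 labelled libraries used every time point. It was negative in 9 genes and positive in 9 at an adjusted p below 0.05 in edgeR's test, 18 of 50, against a background of 37.8% of 11526 genes (19.5% lower and 18.3% higher). The 9 that fell were the 8 genes above and Uhrf1, and in log2 per hour the slopes were -0.21 for Orc5, Orc2 and Cdc6, -0.19 for Orc1, -0.16 for Mcm10 and Cdt1, -0.14 for Orc6, -0.12 for Rrm2 and -0.07 for Uhrf1. The 9 that rose had slopes of 0.11 for Rfc2 and Gins4, 0.09 for Tyms, 0.08 for Rpa1, 0.07 for Pcna and Pola1, 0.06 for Mcm7 and Mcm5 and 0.05 for Mcm3. Rpa1, the large RPA subunit, had 307.7 and 306.5 CPM (15 min), 312.7 and 308.8 (60 min), 337.4 and 319.9 (90 min), then 336.2 and 335.6 (120 min; SE of the slope 0.0191, adjusted p = 0.00093). Leaving out each labelled library in turn, the 8 falls and the rises of Rfc2 and Rpa1 were called in all 10 fits, while the other 8 calls were not. The share of all genes called in all 10 fits was not counted. With library size alone as the scaling, which moved the median of all genes by -0.03 log2 per hour, the slope was called positive in Rpa1 and negative in 13 genes. Over all genes, 10.2% were then called higher and 26.3% lower, so 13 of 50 is near the background.

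Counted by libraries, the 4 at 90 and 120 min and the 4 at 15 and 30 min did not overlap in 16 of the 50 genes, against a background of 27.9% of the genes tested (14.2% higher and 13.7% lower at the longer times). The 8 lower genes were Orc1, Orc2, Orc6, Cdc6, Cdt1, Mcm10, Pold3 and Rrm2, and the 8 higher ones Mcm5, Mcm7, Gins4, Pola1, Pold2, Pcna, Rpa1 and Rrm1. Neither Orc5 nor Uhrf1 was among them, since at least 1 of their longer libraries reached into the range of the shorter ones.

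The genes that fell all had an NTR at 120 min of at least 0.399, and 3 of them were below 0.5. By NTR at 120 min, 0 of 11 genes below 0.2 fell at 120 against 15 min, 0 of 22 from 0.2 to 0.35, 3 of 7 from 0.35 to 0.5 (Orc2, Orc5 and Rrm2) and 5 of 10 above 0.5 (Orc1, Orc6, Cdc6, Cdt1 and Mcm10). Over the 50 genes the NTR at 120 min and the log2 change had a Spearman rho of -0.643 and a Pearson r of -0.703, as a description over genes that share the same libraries. Genome-wide, rho was -0.763 over 9065 genes, and in the same NTR classes 0%, 0.997%, 8.38% and 36.3% of genes fell while 33.1%, 5.16%, 1.04% and 0.395% rose. With the NTR at 60 min in place of that at 120 min, rho over the 50 genes was -0.635. High NTR did not always come with a called fall: Gins3, Fen1, Pold3, Chaf1a and Rpa2, all above 0.5, had changes of -0.13, -0.07, -0.15, -0.02 and -0.03 and did not pass the test. Their values turned positive (0.15, 0.11, 0.00, 0.08 and 0.06) in the fit, described below, that scales up the labelled reads, Chaf1a's also without 1 library and Rpa2's without either of 2. Fen1 in particular had 125.5 and 128.4 CPM at 15 min and 122.1 and 119.4 at 120 min at an NTR of 0.707 and 0.664. In Gins3 and Pold3, as in Fen1, both libraries at 120 min lay below both at 15 min, so a smaller fall may have been missed.

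**Figure D3:**
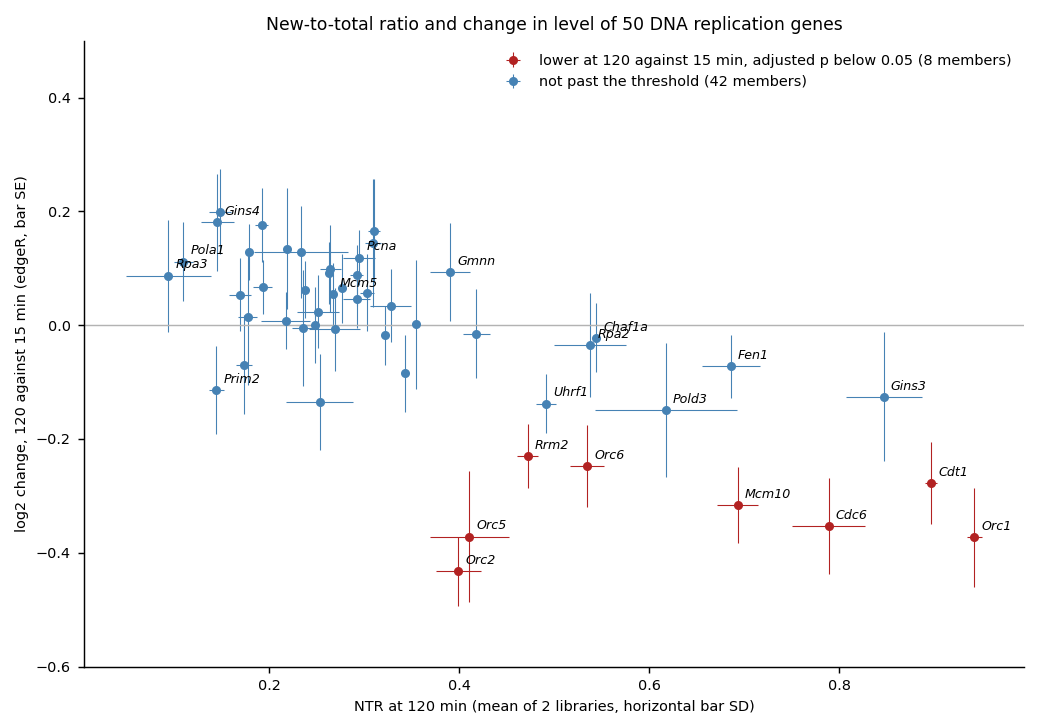
Log2 change in level from 15 to 120 min (vertical axis, edgeR, bars are SE) against the NTR at 120 min (horizontal axis, mean of 2 libraries, bars are SD) for the 50 genes. The 8 genes past the threshold, in red, all have an NTR of at least 0.399, while Gins3 and Fen1 combine a high NTR with a negative change that did not pass the threshold.

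Multiplying level by NTR splits each level into a new and an old part. The old part of Orc1 went from 39.3 and 36.7 CPM (15 min) through 19.9 and 17.9 (60 min) to 1.64 and 1.77 (120 min), and its new part at 120 min was 29.7 and 26.3 CPM. The old part of Cdt1 went from 100.2 and 107.6 to 10.2 and 8.36 CPM between 15 and 120 min. In both genes the new part made up nearly the whole level at the end, yet that level was below the one at 15 min. In Orc2, by contrast, the old part was still 48.6 and 50.1 CPM at 120 min, beside a new part of 34.7 and 31.0 CPM. The old part of Pola1 barely changed, from 98.6 and 101.3 to 97.8 and 95.02 CPM, and the new part added 13.0 and 10.9 CPM.

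**Figure D4:**
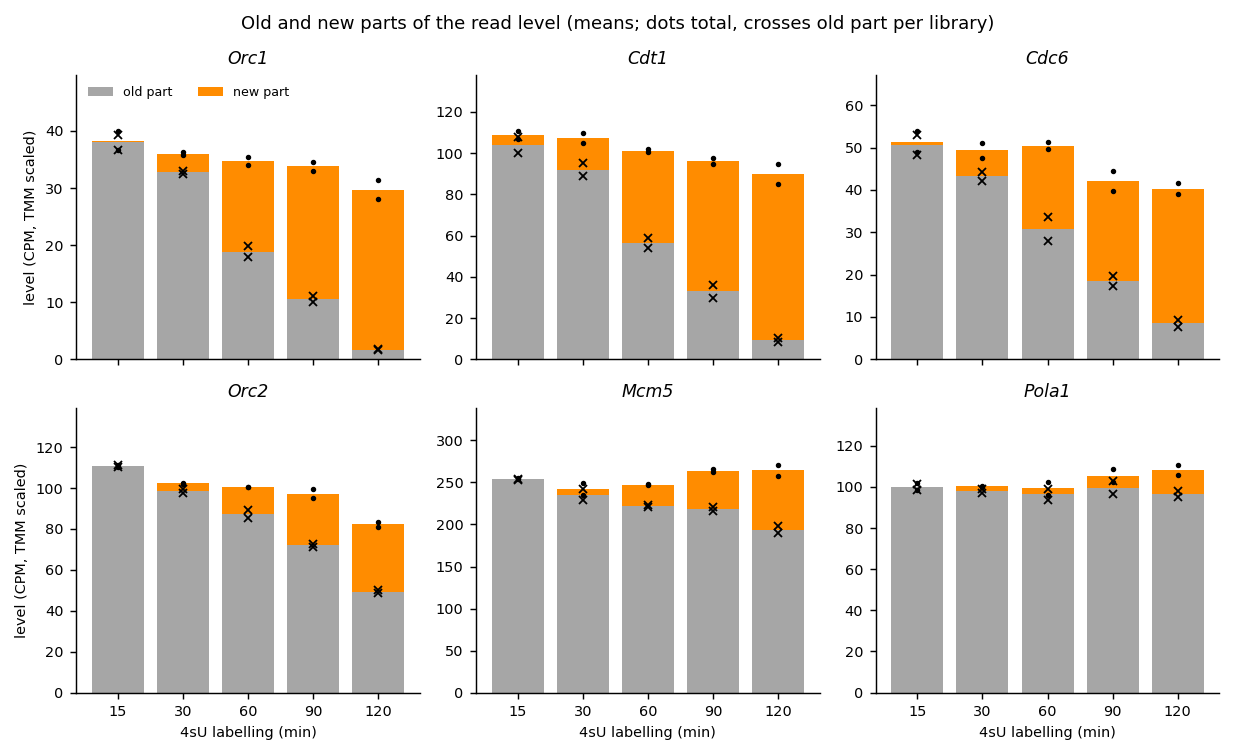
Old (grey) and new (orange) parts of the read level (CPM with TMM scaling, vertical axis from 0) at each labelling time (min) for 6 of the 50 genes. Bars are means of 2 libraries, dots the total and crosses the old part of each library; the old part of Orc1 shrinks to 1.64 and 1.77 CPM at 120 min, while that of Pola1 is 97.8 and 95.02 CPM.

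Because level and NTR moved together genome-wide, the comparisons were repeated after scaling up the new part of each count until level change and NTR no longer correlated over the 9065 genes. Read as a loss, the scaling equals 11.0% and 8.8% of new reads in the 30 min libraries and 34.1% and 35.6% in the 120 min libraries. By construction it raises genes with a high NTR most. Their falls thus shrink whatever their origin, and this fit cannot show which falls come from lost reads. Of the 8 falls from 15 to 120 min, Orc2 then stayed called (-0.42, edgeR adjusted p = 0.00054). Orc5 had -0.35 (adjusted p = 0.117), Rrm2 -0.17 (0.138), Orc6 -0.15 (0.352), Mcm10 -0.13 (0.382), Cdc6 -0.11 (0.585) and Orc1 -0.05 (0.853), and Cdt1 turned to 0.02 (0.926). Against no4sU, Orc2 (-0.34), Orc5 (-0.46) and Orc6 (-0.29) were called. For the slope, 7 genes were called: Orc5, Orc2, Prim2, Cdc45, Orc6 and Rrm2 were lower and Fen1 was higher, at 0.09 per hour (-0.02 without the scaling). The shares of all genes called in the scaled fits were 2.09% at 120 against 15 min, 1.67% against no4sU and 12.9% for the slope. The rises of Rfc2, Gins4, Tyms, Rpa1, Pcna, Pola1 and the MCM subunits were not called in that fit. Which part of the falls comes from lost reads of labelled RNA was not tested.

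Other genes of the pathway were counted in the same way. A list of 34 further replication genes, covering initiation, checkpoint, RNase H2, topoisomerase and nucleotide supply, was taken from the same fit, and all 34 passed the filter. At 120 against 15 min, 9 fell and 2 rose, again beside a background of 19.3%. The falls were those of Wdhd1 (-0.68), which ties polymerase alpha to the helicase, Atad5 (-0.53), which unloads the clamp, Mcm9 (-0.50), Dna2 (-0.46), a flap nuclease, Cdc7 (-0.44) and its activator Dbf4 (-0.22), the kinase that fires loaded helicases, Clspn (-0.41), Ticrr (-0.37), which helps to recruit Cdc45, and Top2a (-0.21). The rises were those of Rnaseh2c (0.42) and Rnaseh2a (0.24), both subunits of RNase H2. At 120 against no4sU 9 fell and 0 rose in edgeR's test, beside 8.78% of all genes lower and 5.43% higher. For the slope 11 fell and 6 rose, beside 19.5% and 18.3%. Of these genes, Ticrr, Atad5 and Cdc7 were among the fastest, with an NTR at 120 min of 1.00 in both libraries, 0.963 ± 0.0337 and 0.861 ± 0.0709, while Rnaseh2c was at 0.123 ± 0.0441. The initiation genes Orc1, Cdc6, Cdt1, Mcm10, Ticrr and Cdc7 thus combined an NTR above 0.6 with a fall, and were picked out here after their values were seen. Gins3, of the complex that activates the helicase, had an NTR of 0.847 and was not called (-0.13). Genome-wide, 36.3% of genes with an NTR above 0.5 fell. The fit that scales up the labelled reads raises genes with a high NTR by construction. In it, Orc1, Cdc6, Cdt1 and Mcm10 were not called at 120 against 15 min (-0.05, -0.11, 0.02 and -0.13).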

How the data were processed

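SLAM-seq libraries of NIH-3T3 cells, 12 in 6 groups of 2, were grouped by their titles. The authors' deposited table lists 17419 genes with estimated counts per gene and library, unscaled between libraries. They were rounded for the tests, since 20.4% deviated from a whole number by more than 1e-06. Among the 50 genes, 42 had such a value in at least 1 library, so some reads may be divided between genes, and an error from that is in no error given. The NTR was deposited as a fraction from 0 to 1, as a posterior maximum, which was used here, a posterior mean and quantiles that span a 90% interval. Columns named alpha and beta, deposited as a score each, were left aside. Length in bases is per the file headers. Cutadapt, Bowtie2 2.3.0 and STAR 2.7.10b are named in the submitters' processing notes without role or order; counting tool, build, annotation and strand setting were not given in the sources used here. Reads of overlapping antisense genes may therefore be mixed.

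The count test was edgeR 4.0.16 (R 4.3.3): filterByExpr (11564 genes), TMM, a quasi-likelihood fit over the 12 libraries, contrasts between groups, and Benjamini-Hochberg adjustment over all genes tested with a threshold of 0.05 (common biological coefficient of variation 4.44%). The slope was fitted over the 10 labelled libraries (11526 genes, 2.70%). DESeq2 1.42.0, other scalings and filters, a replicate block and leaving out libraries were the alternatives. NTR summaries used genes averaging 100 or more reads per library. The apparent half-life was ln 2 times the labelling time over -ln(1-NTR), for NTR from 0.01 to 0.99. RPKM and CPM were computed here from the counts and gene lengths. Errors as SD describe 2 libraries unless 12 are named, and totals of 9917026 to 13739380 reads limit the precision of low genes. Python 3.11.15 with pandas 2.3.3 was used.

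Named with their values were genes past the threshold in any of the 4 count comparisons (at most the 8 largest falls and 6 largest rises by the change from 15 to 120 min), the 4 highest and 4 lowest in NTR, and Mcm2, Mcm5, Pcna, Rrm2, Cdc6, Cdt1 and Gmnn; others named for a contrast within a complex were chosen after their values were seen. The 50 genes and the lists were chosen with earlier results of these data known. Ensembl IDs were located in the GENCODE M21 annotation of GRCm38, and promoters are RefSeq's (GRCm38.p6).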

Additional observations from a re-analysis of the deposited data

How the results depend on the processing

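The counts of the 50 genes called depended most on the treatment of labelled reads and on the libraries in the fit. With the new part of each count scaled up, 3 genes were called at 120 min against no4sU (10 otherwise), 1 at 120 against 15 min (8) and 7 for the slope (18). Of all genes, 1.67%, 2.09% and 12.9% were called with that scaling. In that fit these values changed sign: Cdt1 (0.0448 against no4sU, 0.0229 against 15 min and 0.0117 for the slope), Pola1 (-0.0710 against 15 min and -0.0404 for the slope), Fen1 (0.113 against 15 min and 0.0887 for the slope), and, at 120 against 15 min, Gins3 (0.149), Pold3 (0.0004), Chaf1a (0.0816), Rpa2 (0.0634), Mcm2 (-0.0087), Mcm4 (-0.0297), Mcm5 (-0.0170), Rpa3 (-0.110), Rpa1 (-0.0034), Rrm1 (-0.0564), Orc3 (-0.118) and Orc4 (-0.0129). The cause was not tested. Fitted on only the 2 groups compared, 0 genes were called against no4sU (9 at an unadjusted p below 0.05), 14 at 120 and 4 at 90 against 15 min. The shares of all genes called there were 1.5%, 33.6% and 9.6%. Fitted on the labelled libraries, as chosen after seeing the data, 14 and 4 were called, beside 32.1% and 9.33% of all genes. Leaving out each library in turn gave 4 to 17 genes against no4sU, 2 to 5 at 120 and 0 to 0 at 90 against 15 min, and 14 to 20 for the slope. At 90 against 15 min, library size alone gave 2 (Orc2 and Cdc6) and no filter on low counts 1 (Cdc6). These settings called 3.02% and 2.41% of all genes. Library size alone turned Mcm2 (-0.0107), Mcm5 (-0.0022), Orc3 (-0.0419) and Orc4 (-0.0559) at 120 against 15 min, and Orc4 also turned with RLE size factors (-0.0004), no filter (-0.0006) and only the 2 groups (-0.0050). Leaving out each library turned 4 of the named values there: Orc3 (-0.151 to 0.147), Orc4 (-0.0608 to 0.0663), Chaf1a (-0.0928 to 0.0481) and Rpa2 (-0.117 to 0.0472). Scaling by library size alone shifted the share of lower calls over all genes from 61.8% to 89.2% against no4sU (0 genes of the 50 higher and 10 lower). At 120 against 15 min that share went from 58.8% to 81.4% (0 and 9), and for the slope from 51.6% to 72.1% (1 and 13). Of all genes tested with that scaling, 14.6%, 16.1% and 26.3% were called lower, in the same order. Called higher were 1.76%, 3.68% and 10.2%. DESeq2 called 10 genes against no4sU, 7 at 120 and 0 at 90 against 15 min, and 16 for the slope. Its shares over all genes were 9.16%, 12.6%, 0.856% and 32.0%. A mean count of at least 1000 left 23 of the 50 genes and gave a median NTR of 0.293 (0.289 otherwise) and a median half-life of 240.5 min (244.1). Of 826 values of 32 named genes under alternatives, 672 kept their direction and side of the threshold, 104 lost and 17 gained a call, and 33 changed sign.

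Replicate letters did not pair the libraries (correlation of deviations -0.042 to 0.068 over 15 pairs of groups). With the replicate block, 10 genes were called against no4sU, 8 at 120 and 0 at 90 against 15 min, and 18 for the slope, the counts found without it. Over all genes, the shares with the block were 15.0%, 20.0%, 1.35% and 38.6%.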

Other observations

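Regulators upstream of these genes, the E2F factors, pocket proteins and the cyclin E kinase with its activator, were covered by a list of 18, of which 17 passed the filter (E2f6 did not). At 120 against 15 min, 9 of the 17 fell and none rose in edgeR's quasi-likelihood test, where 19.3% of 11564 genes were called: Cdc25a (-0.65), the phosphatase that activates Cdk2, E2f3 (-0.48), Ccne2 (-0.46), E2f8 (-0.42), E2f5 (-0.41), E2f7 (-0.34), Ccne1 (-0.29), Cdk2 (-0.23) and the pocket protein Rbl1 (-0.21). E2f2 joined them in the slope over the labelled libraries, where 19.5% of all genes were called lower. At 120 against 15 min, 11.3% of all genes were called lower. The median NTR of the list at 120 min was 0.578. Genome-wide, 36.3% of genes with an NTR above 0.5 fell, and 8.38% of those from 0.35 to 0.5. Whether the regulators fell more often than genes of similar NTR was not tested. Their values with the labelled reads scaled up or with a library left out are not given here. At 90 against 15 min, Cdc25a (-0.46) and E2f3 (-0.40) fell, where 1.06% of all genes were called. E2f1, E2f4, Tfdp1 and Rb1 had changes of -0.02, -0.01, 0.02 and -0.12 at 120 against 15 min and did not pass the test. By the NTR at 120 min, E2f3, E2f7 and E2f8 were nearly fully new (0.974 ± 0.0368, 0.974 ± 0.0263 and 0.983 ± 0.0235), whereas E2f1 and Rbl1 were both at 0.362 and Tfdp1 was at 0.263 ± 0.00311.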
